A study of Mus musculus with 23 samples.

Results

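Glycolysis and hypoxia-response genes were 40 of the 55487 genes counted. They were chosen by name, but with earlier results of these data known. Every row whose Ensembl identifier carries the symbol of a glycolytic enzyme or of a listed target of the hypoxia-inducible factors (HIF) was taken. The list held 16 glycolytic enzymes (Hk1, Hk2, Gpi1, Pfkl, Pfkm, Pfkp, Aldoa, Aldoc, Tpi1, Gapdh, Pgk1, Pgam1, Eno1, Eno2, Pkm and Ldha), 3 transporters of glucose and lactate (Slc2a1, Slc2a3 and Slc16a3), 3 regulators of flux (Pfkfb3, Pfkfb4 and Pdk1), 4 genes of oxygen sensing and HIF subunits (Egln1, Egln3, Hif1a and Epas1), 4 genes of mitochondrial proteins (Bnip3, Bnip3l, Higd1a and Ak4), 3 genes of secreted or surface proteins (Vegfa, Adm and Car9), 3 of collagen modification and protein folding (P4ha1, P4ha2 and Ero1l), and 4 other targets (Ankrd37, Ndrg1, Kdm3a and Mxi1). All 40 had enough counts to be tested.

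RNA-seq was performed on primary mouse embryonic fibroblasts (MEFs), cells grown from FVB/NJ embryos (E13.5) without their heads and organs. The cells carried 1 of 4 homozygous forms of the glucocorticoid receptor (GR): the unmodified receptor (GRwt/wt), the D form (GRD/D), in which threonine replaces an alanine where the DNA-binding domains of a dimer meet, the L form (GRL/L), in which alanine replaces an isoleucine of the ligand-binding domain, or the double mutant with both changes (GRD+L/D+L). Each was given vehicle or 10 nM dexamethasone (Dex), a synthetic GR ligand, for 5 h, with 3 libraries per group except GRD/D vehicle, which had 2. The comparisons ask how each change in the receptor, and Dex, moved these genes. The L and D+L alleles were made by CRISPR/Cas9 in zygotes carrying the D allele and were then backcrossed to FVB/NJ, and each culture of a genotype was started from another mouse. The paper reports a pup with the D+L allele and others with the L allele, but not which of them these cultures descend from. Line and genotype therefore cannot be told apart, and p-values measure only the spread between these libraries. In bulk cultures, fewer cells of a type and less RNA per cell cannot be told apart either.

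Glycolysis splits glucose into pyruvate in the cytosol, and lactate dehydrogenase turns the pyruvate into lactate, which leaves the cell through monocarboxylate transporters. When oxygen is low, the prolyl hydroxylases that mark the HIF alpha subunits for destruction are less active, and the stabilised HIF pairs with ARNT on short sites with the core RCGTG and switches on most glycolytic genes together with genes of angiogenesis, mitophagy and collagen hydroxylation. Cultured fibroblasts express the pathway at high levels also in air, and glucocorticoids are known regulators of glucose use in many tissues.

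Libraries held 16.5 M to 23.1 M counts. The 8 fibroblast markers (Col1a1, Col1a2, Col3a1, Pdgfra, Pdgfrb, Thy1, Vim and Dcn) summed to 32700 to 57200 CPM (counts relative to the TMM-scaled total of the library) across the groups, and none was at 0 in any group. In the GRwt/wt vehicle group, replicate 1 stood apart from every other library, with a best Spearman correlation of 0.916 against at least 0.973 elsewhere and with Nr3c1, the GR gene, at 4.08 CPM and Hif1a at 12.6 CPM. The deviation of its genes from their median over the libraries followed transcript GC content (Spearman's rho across genes 0.688, against 0.323 in GRwt/wt Dex replicate 1 and -0.196 to 0.105 in the other libraries). Hif1a and Bnip3 (GC fractions 0.413 and 0.416) are among the members poorest in GC, and Pkm, Eno1, Pfkl and Aldoa (0.569 to 0.577) are the richest. The part of GC content in the members' levels there was not tested in single libraries. A fit corrected for GC content and length kept the counts of lower members in vehicle against GRwt/wt within 1.5 times of those given below. In the same group, replicate 3 had 3379 CPM of the macrophage gene Lyz2 and a sum of 4530 CPM over the 8 macrophage markers, whereas the lowest sum in that group was 17.8 CPM. The counts of members are therefore also given without these 2 libraries.

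The 300 bases around the start of the genes (RefSeq promoters, GRCm38.p6, 250 bases before to 50 after the start) show what letters of the HIF core these genes carry. Motifs ACGTG and GCGTG were searched on both strands, and matches that overlapped were merged into 1. Of the members, 36 had at least 1 listed promoter, and 33 of these 36 had a core in at least 1 of them. Of 57 member promoters, 45 (78.9%) held a core, whereas 43.8% of all 32851 promoters did, and 33 of the 57 held 2 or more, against 17.3% of all. The promoters of 4 members are shown as examples, with cores in capitals: the phosphoglycerate kinase gene Pgk1 (chrX:106186850-106187149, plus strand, 2 cores), the collagen prolyl hydroxylase gene P4ha2 (chr11:54100674-54100973, plus strand, 4 cores) and the lactate exporter gene Slc16a3 (chr11:120948817-120949116, plus strand, 2 cores), all of which were lower in GRL/L and double mutant cells, and the enolase gene Eno2 (chr6:124769624-124769923, minus strand, no core), which was not.
Pgk1: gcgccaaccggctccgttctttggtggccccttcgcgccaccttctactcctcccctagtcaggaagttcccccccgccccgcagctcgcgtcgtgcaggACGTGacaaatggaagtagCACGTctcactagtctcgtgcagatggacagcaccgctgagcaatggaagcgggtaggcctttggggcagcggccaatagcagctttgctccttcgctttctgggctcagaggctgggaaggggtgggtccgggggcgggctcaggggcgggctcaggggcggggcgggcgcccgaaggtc
P4ha2: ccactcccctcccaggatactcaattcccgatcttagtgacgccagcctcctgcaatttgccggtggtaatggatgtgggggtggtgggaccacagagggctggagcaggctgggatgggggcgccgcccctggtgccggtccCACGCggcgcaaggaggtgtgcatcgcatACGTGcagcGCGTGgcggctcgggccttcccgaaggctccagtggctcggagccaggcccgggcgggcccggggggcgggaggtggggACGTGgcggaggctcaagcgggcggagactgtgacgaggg
Slc16a3: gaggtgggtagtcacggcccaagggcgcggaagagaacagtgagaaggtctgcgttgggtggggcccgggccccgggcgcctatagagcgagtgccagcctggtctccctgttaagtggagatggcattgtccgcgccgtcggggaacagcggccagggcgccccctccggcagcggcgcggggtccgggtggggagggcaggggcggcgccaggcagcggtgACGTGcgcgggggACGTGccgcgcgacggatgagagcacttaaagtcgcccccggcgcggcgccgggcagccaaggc
Eno2: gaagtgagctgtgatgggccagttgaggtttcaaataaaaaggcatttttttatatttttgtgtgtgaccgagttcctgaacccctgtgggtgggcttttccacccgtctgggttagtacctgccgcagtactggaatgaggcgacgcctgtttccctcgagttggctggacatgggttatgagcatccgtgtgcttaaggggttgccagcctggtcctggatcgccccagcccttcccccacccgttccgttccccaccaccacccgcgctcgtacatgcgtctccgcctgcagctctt
These letters are a description of the windows, not of binding. Cores did not separate the members that were lower in GRL/L or double mutant vehicle libraries from the others: 19 of the 21 lower members with a listed promoter had one, and so did 14 of the 15 that were not lower. Gpi1 and Tpi1, which passed as lower, and Eno2, which did not, were listed without a core.

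In vehicle, most glycolytic enzyme genes were lower in MEFs with the L change than in GRwt/wt MEFs. By edgeR's quasi-likelihood test with Benjamini-Hochberg adjustment over all genes (adjusted p of at most 0.05), 21 of 40 members were lower in GRL/L cells, against 14.2% of the 15748 genes tested, and 19 of 40 were lower in double mutant cells, against 13.3%. No member was higher, whereas 8.83% and 7.14% of genes were. With a log2 fold change (LFC) of at least 1 in size required as well, 17 members were lower in GRL/L (background 2.84%) and 15 in the double mutant (4.71%). The median LFC of the 40 members was -0.77 in GRL/L and -0.61 in the double mutant, beside -0.05 over all genes in both. In GRD/D vehicle cells 0 of 40 passed in either direction (0.00635% of genes were lower), with 2 members and 1946 of the 15748 genes at an unadjusted p under 0.05 and 0 members by DESeq2, and the median LFC was -0.07. The 3 comparisons share the GRwt/wt vehicle libraries. Both 21 and 19 included 17 members that were lower in GRL/L and in the double mutant, while Pfkp, Egln3, P4ha1 and Mxi1 passed in GRL/L alone and Slc2a3 and Car9 in the double mutant alone.

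**Figure D1:**
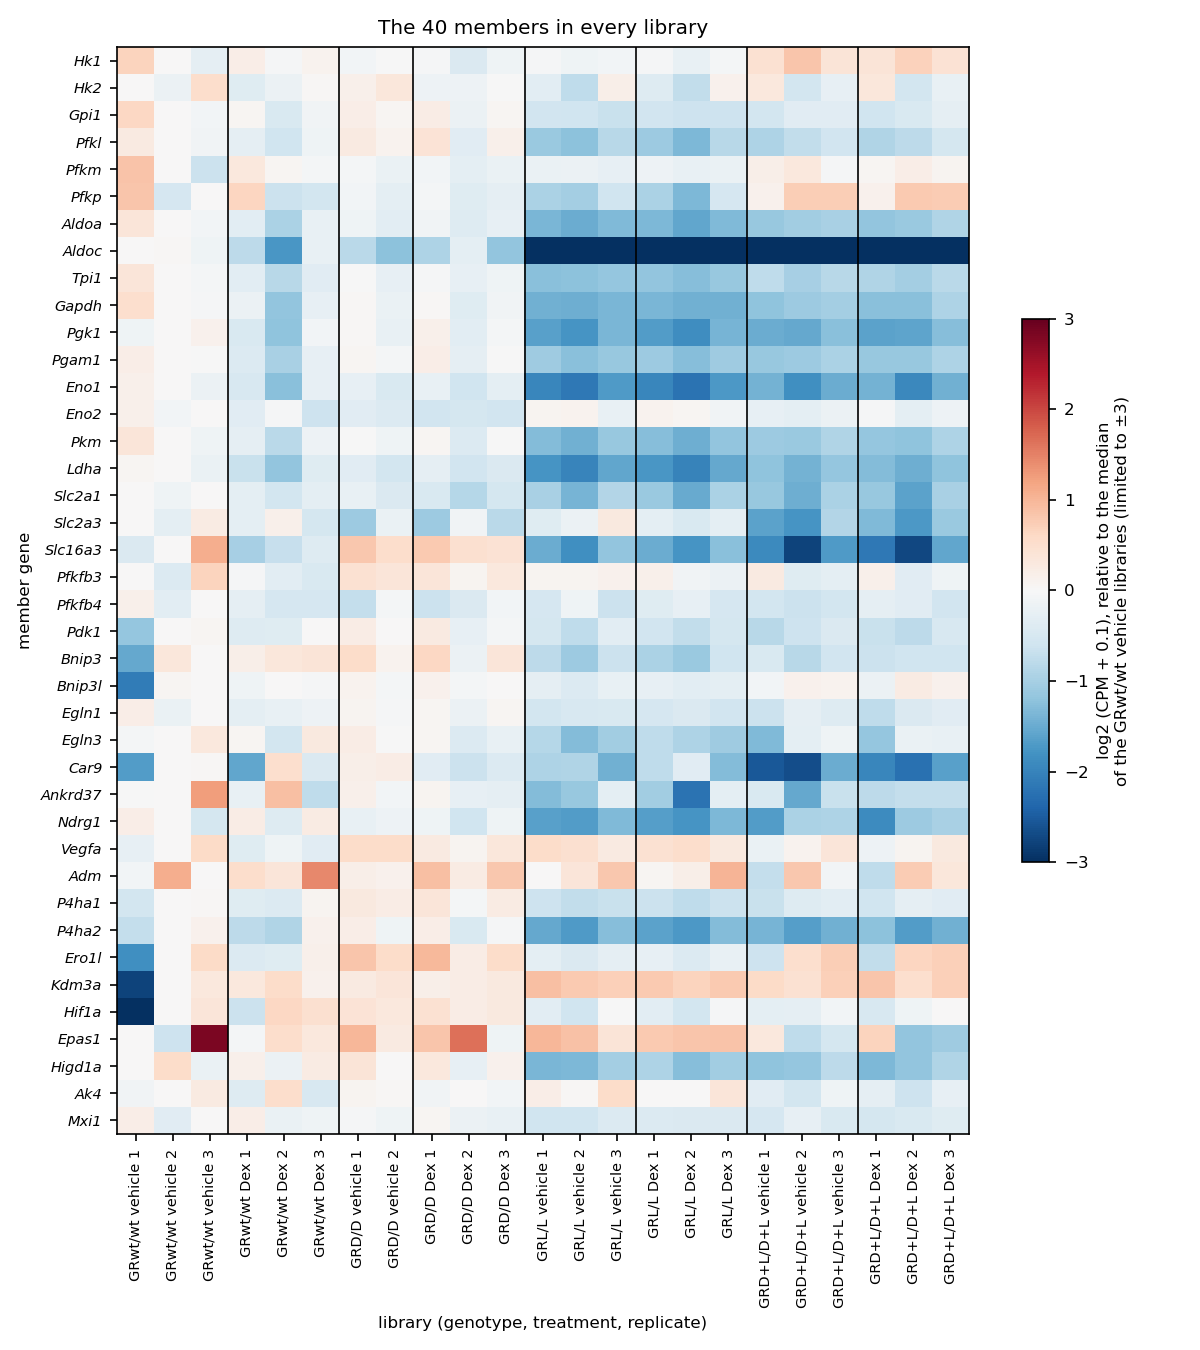
Each row is 1 of the 40 members and each column 1 of the 23 libraries, and colour gives log2(CPM + 0.1) relative to the median of the GRwt/wt vehicle libraries, limited to 3 in either direction. Most enzymes from Gpi1 to Ldha are lower in all 12 GRL/L and double mutant libraries, while Hk1, Hk2, Pfkm and Eno2 are not.

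The count did not rest on the 2 GRwt/wt vehicle libraries that stood apart. Without replicate 1, 24 members were lower and 1 higher in GRL/L (20 of the 21 kept), where 12.5% of all genes were lower and 11.9% higher. In the double mutant 22 were lower and 3 higher (17 of the 19 kept), against 12.3% and 11.5% of genes. Without replicate 3, 21 were lower and 2 higher in GRL/L (20 kept; 18.5% and 17.3% of genes), and 18 lower and 1 higher in the double mutant (18 kept; 15.1% and 13.2%). With both left out, which leaves a single GRwt/wt vehicle library, 18 members were lower and 1 higher in GRL/L (17 kept), against 12.9% and 11.4% of genes, and 17 lower and 2 higher in the double mutant (15 kept), against 10.6% and 9.14%.

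The upper steps of glycolysis start with the hexokinases, which trap glucose in the cell. Hk1 had 180, 114 and 94.6 CPM in the GRwt/wt vehicle libraries, 108 and 113 in GRD/D, 112, 105 and 107 in GRL/L, and 157, 204 and 150 in the double mutant, and the groups overlapped with GRwt/wt throughout. Hk2, the inducible hexokinase, had 17.5, 15.5 and 25.2 CPM in GRwt/wt, 19.6 and 22.0 in GRD/D, 14.1, 10.2 and 19.7 in GRL/L, and 21.9, 12.0 and 14.8 in the double mutant. Neither passed in any genotype in vehicle. Without GRwt/wt vehicle replicate 1, which had the highest Hk1 level, Hk1 was higher in the double mutant (LFC 0.72). Gpi1, the glucose-6-phosphate isomerase, was lower in both genotypes with the L change (LFC -0.83 and -0.62). Of the phosphofructokinases, which commit the sugar to glycolysis, Pfkl was lower in both (-1.12 and -0.80), Pfkm in neither (-0.41 and -0.06), and Pfkp in GRL/L only (-1.06 ± 0.35 SE, adjusted p = 0.0365). Pfkp had 29.6, 28.3 and 37.6 CPM in GRL/L and 63.1, 95.3 and 96.6 in the double mutant, without overlap, but the difference between these genotypes did not pass the test (LFC 1.42 ± 0.35, adjusted p = 0.145), and GRwt/wt itself spread from 40.2 to 102 CPM.

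Aldolases cleave fructose-1,6-bisphosphate. Aldoa, the major form here, had 1730, 1350 and 1270 CPM in GRwt/wt vehicle libraries, 1230 and 1090 in GRD/D, 526, 479 and 542 in GRL/L, and 613, 657 and 686 in the double mutant. All 6 libraries with the L change lay below all 5 without it, which held for 19 of 40 members and 6.49% of genes, with an LFC of -1.5 ± 0.17 SE (adjusted p = 7.76e-05, 2.82-fold lower) in GRL/L and -1.16 ± 0.17 (adjusted p = 0.000482) in the double mutant. Aldoc, the second aldolase and a HIF target, had 27.3, 27.9 and 25.0 CPM in GRwt/wt, 15.5 and 11.5 in GRD/D, 1.55, 2.42 and 1.86 in GRL/L, and 2.02, 0.183 and 1.41 in the double mutant, the second of which rests on 4 counts. It showed the largest fall of the 40 members in both genotypes, with an LFC of -3.77 ± 0.57 (adjusted p = 0.000402, 13.7-fold lower) and -4.48 ± 0.60 (adjusted p = 0.000248, 22.3-fold lower). In GRD/D both Aldoc libraries lay below the 3 of GRwt/wt (LFC -0.99 ± 0.58), which did not pass (adjusted p = 0.472).

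At the payoff steps, from triose phosphate to lactate, every enzyme but Eno2 passed as lower in both genotypes with the L change. Gapdh, which makes 1,3-bisphosphoglycerate and is often used as a reference gene, had 1140, 803 and 784 CPM in GRwt/wt, 824 and 697 in GRD/D, 298, 290 and 309 in GRL/L, and 345, 375 and 394 in the double mutant. Its LFC was -1.60 ± 0.21 in GRL/L (adjusted p = 0.000187) and -1.29 ± 0.21 in the double mutant (adjusted p = 0.00112). The levels of the 2 genotypes with the L change did not overlap with the others. Pgk1, the first ATP-making step, had 277, 305 and 331 CPM in GRwt/wt, 311 and 260 in GRD/D, 98.4, 88.9 and 118 in GRL/L, and 108, 105 and 128 in the double mutant, again without overlap (LFC -1.58 ± 0.22, adjusted p = 0.000259, and -1.42 ± 0.22, adjusted p = 0.000792). Tpi1 (-1.33 and -0.97), Pgam1 (-1.22 and -1.12) and Pkm (-1.38 and -1.13), which isomerise triose phosphates, shift the phosphate of phosphoglycerate and make pyruvate, fell in both genotypes, with adjusted p-values from 5.88e-05 to 0.000878 in the same tests.

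Eno1 and Eno2 catalyse the same step, the making of phosphoenolpyruvate, and behaved differently. Eno1 had 793, 715 and 632 CPM in GRwt/wt vehicle libraries, 605 and 522 in GRD/D, 185, 161 and 221 in GRL/L, and 269, 199 and 256 in the double mutant. It was 3.77-fold lower in GRL/L (LFC -1.92 ± 0.23, adjusted p = 0.000124) and 2.95-fold lower in the double mutant (LFC -1.56 ± 0.23, adjusted p = 0.000513). Eno2, the neuronal form and a HIF target, had 59.1, 50.1 and 53.1 CPM in GRwt/wt, 41.9 and 39.9 in GRD/D, 56.6, 57.0 and 45.8 in GRL/L, and 44.8, 43.5 and 46.7 in the double mutant, with an LFC of -0.03 ± 0.13 in GRL/L (adjusted p = 0.897) and -0.27 ± 0.13 in the double mutant (adjusted p = 0.159). All double mutant and GRD/D vehicle libraries of Eno2 lay below all of GRwt/wt, as in 13.9% and 12.1% of genes. Per kilobase of exon, Eno2 made up 8.02% ± 0.69 (SD, n = 3) of the summed Eno1 and Eno2 CPM in GRwt/wt vehicle and 7.69% ± 0.50 (n = 2) in GRD/D. With the L change it made up 24.6% ± 4.98 (GRL/L, n = 3) and 17.7% ± 2.05 (the double mutant, n = 3). The lowest share with the L change, 16%, lay above the highest without it, 8.77%. Aldoc moved the other way, from 1.64% ± 0.22 of the summed Aldoa and Aldoc CPM per kilobase in GRwt/wt and 1.02% ± 0.13 in GRD/D to 0.339% ± 0.098 in GRL/L and 0.167% ± 0.135 in the double mutant.

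**Figure D2:**
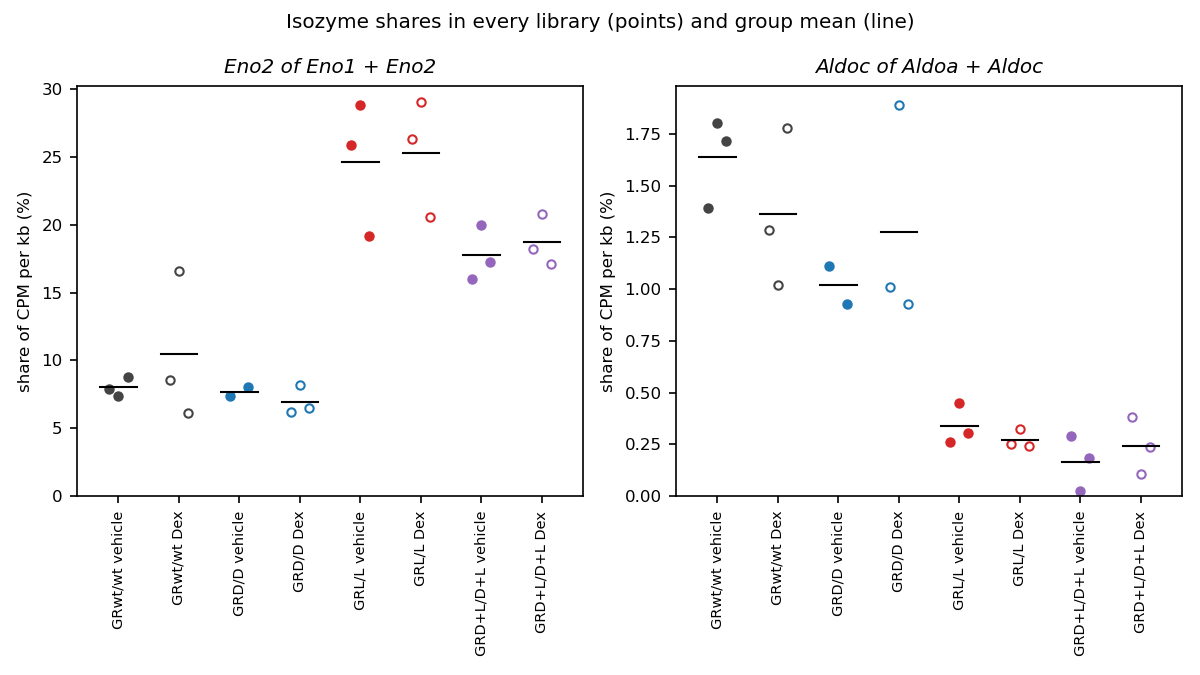
Points are libraries, and the axes give the share of Eno2 in the enolases and of Aldoc in the aldolases, in percent of CPM per kilobase of exon. The Eno2 share in vehicle libraries was 19.1% to 28.8% in GRL/L and 7.42% to 8.77% in GRwt/wt, and GRwt/wt with Dex reached 16.6% in 1 library.

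Ldha, which turns pyruvate into lactate, had 868, 836 and 727 CPM in GRwt/wt vehicle libraries, 662 and 569 in GRD/D, 246, 212 and 284 in GRL/L, and 360, 314 and 373 in the double mutant. The LFC was -1.71 ± 0.19 in GRL/L (adjusted p = 5.88e-05) and -1.22 ± 0.18 in the double mutant (adjusted p = 0.00057), and the libraries with the L change did not overlap with the others. Slc16a3 (MCT4), which exports lactate, had 18.1, 24.6 and 52.5 CPM in GRwt/wt, 43.5 and 35.3 in GRD/D, 8.66, 6.78 and 10.7 in GRL/L, and 6.48, 3.48 and 7.54 in the double mutant. The GRwt/wt libraries spread widely, but all 6 with the L change lay below them (LFC -1.87 ± 0.37, adjusted p = 0.00214, and -2.45 ± 0.38, adjusted p = 0.000733). At the entry of the pathway, the glucose transporter gene Slc2a1 (GLUT1) was lower in both genotypes (-1.04 and -1.14). Slc2a3 (GLUT3) had 6.84, 5.53 and 8.11 CPM in GRwt/wt, 3.15 and 5.95 in GRD/D, 5.33, 6.03 and 8.43 in GRL/L, and 2.18, 1.92 and 3.65 in the double mutant, so it was lower in the double mutant (LFC -1.41 ± 0.33, adjusted p = 0.00763) while in GRL/L its LFC was -0.05 ± 0.32 (adjusted p = 0.92). The regulators of flux, Pfkfb3 and Pfkfb4, which set the level of the phosphofructokinase activator fructose-2,6-bisphosphate, and Pdk1, which keeps pyruvate out of the mitochondrion, did not pass in either genotype (LFC from -0.54 to -0.05).

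**Figure D3:**
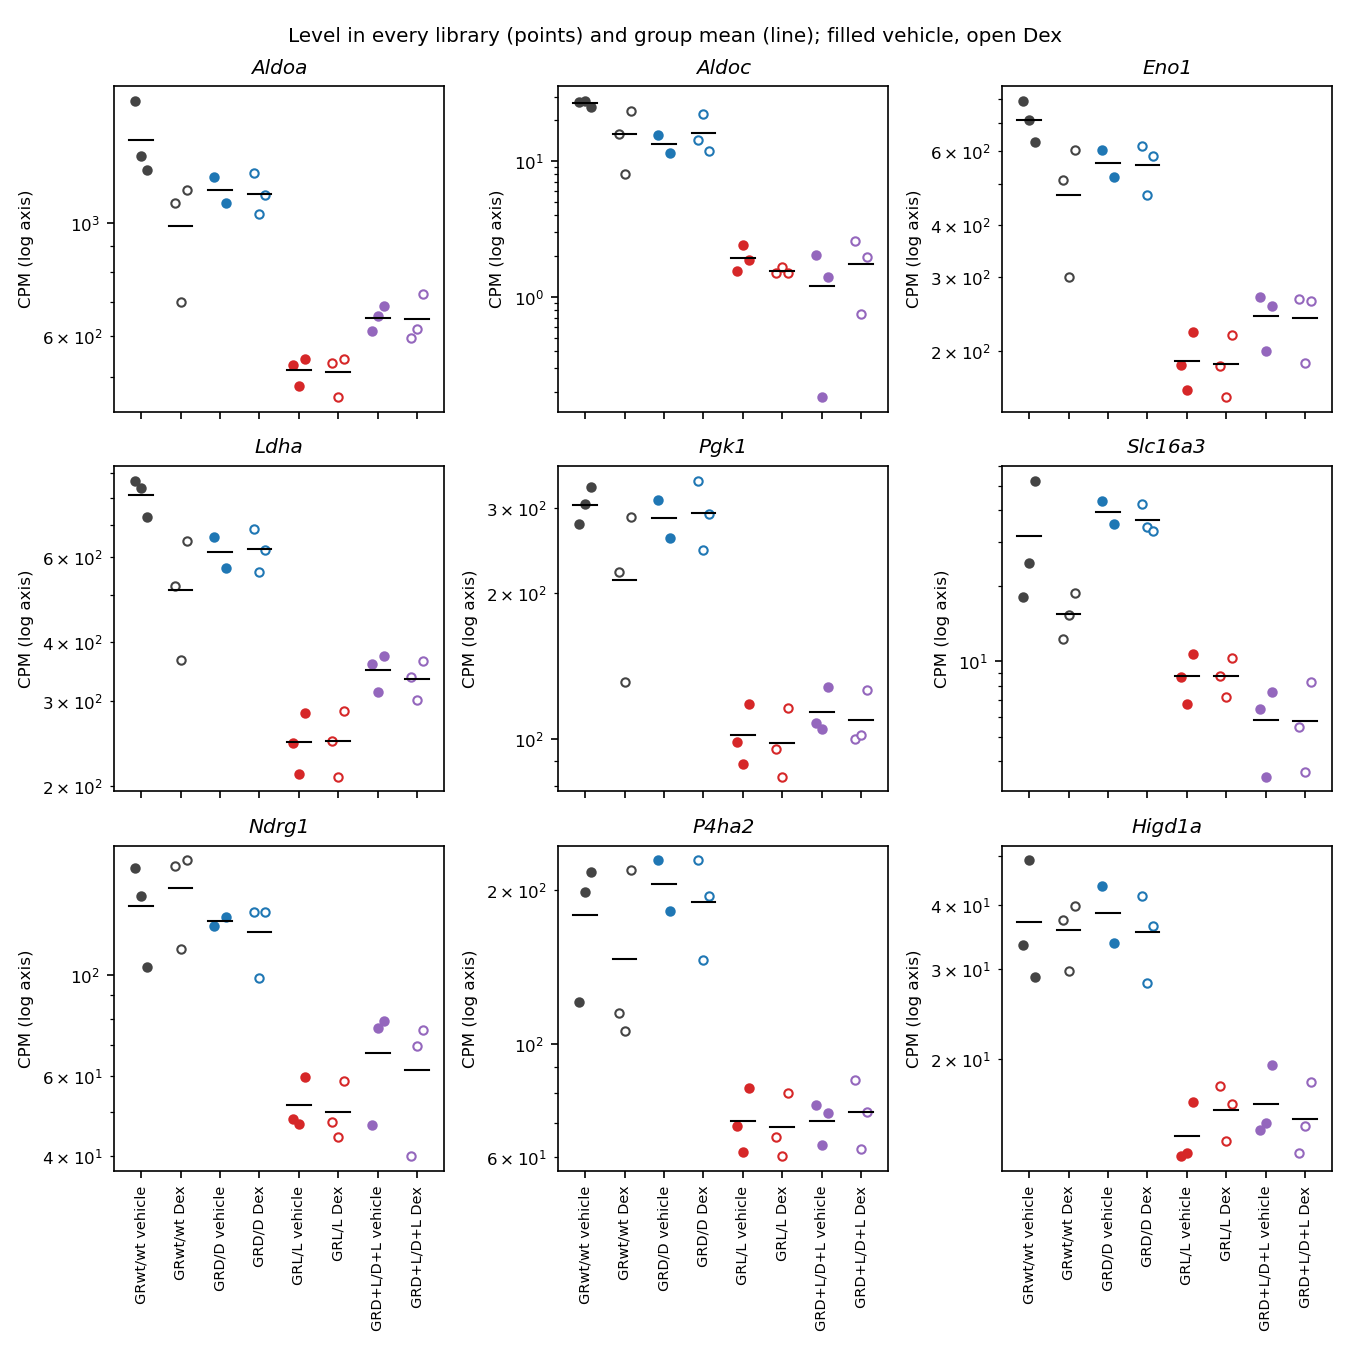
CPM on a log axis of 9 members by genotype, with filled points for vehicle libraries, open points for Dex libraries and a line at each group mean. All 9 are among the 19 members in which every vehicle library with the L change lay below those of GRwt/wt and GRD/D. The choice of members therefore fixes the pattern shown in vehicle.

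Taken by role, 12 of 16 enzymes were lower in GRL/L and 11 of 16 in the double mutant, with median LFCs of -1.27 and -1.05, and so were 2 and 3 of the 3 transporters, and 7 and 5 of the 21 remaining members, against 14.2% and 13.3% of all genes. The difference between the roles was not tested. Among oxygen sensors, Egln1 (PHD2), the main HIF prolyl hydroxylase, was lower in both (-0.50 and -0.43), and Egln3 (PHD3), itself a HIF target, in GRL/L (-1.17 ± 0.31, adjusted p = 0.0116), where it had 4.89, 3.55 and 4.24 CPM against 8.61, 8.91 and 11.1 in GRwt/wt. Of the collagen prolyl hydroxylases, P4ha2 was lower in both (-1.34 in each) and P4ha1 in GRL/L (-0.52). The P4ha2 libraries were 121, 199 and 217 CPM in GRwt/wt, 229 and 182 in GRD/D, 68.9, 61.4 and 81.9 in GRL/L, and 75.8, 63.3 and 73.1 in the double mutant. The folding oxidase gene Ero1l did not pass (-0.22 and 0.43).

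Higd1a, which encodes a mitochondrial protein induced by hypoxia, was lower in both genotypes (-1.39 ± 0.21, adjusted p = 0.000438, and -1.19 ± 0.21, adjusted p = 0.00165), while the mitophagy receptor genes Bnip3 (-0.63 and -0.42) and Bnip3l (0.10 and 0.46) and the adenylate kinase gene Ak4 (0.23 and -0.39) did not pass. Without GRwt/wt vehicle replicate 1, in which Bnip3 was at 18.5 CPM against 68.4 and 54.0 in the other GRwt/wt vehicle libraries, Bnip3, Bnip3l, Pdk1 and Ankrd37 also passed as lower in GRL/L. Ndrg1, a stress-responsive gene and frequent hypoxia marker, had 171, 149 and 104 CPM in GRwt/wt, 128 and 134 in GRD/D, 48.3, 46.9 and 59.7 in GRL/L, and 46.8, 76.5 and 79.0 in the double mutant, with no overlap between the L groups and the others (LFC -1.45 ± 0.26, adjusted p = 0.00124, and -1.07 ± 0.26, adjusted p = 0.00989). Mxi1, a MYC antagonist, was lower in GRL/L (-0.51), and Ankrd37 did not pass in either (-1.47 and -1.46, adjusted p = 0.0551 and 0.0619). The histone demethylase gene Kdm3a went up in value rather than down (1.13 and 0.91, adjusted p = 0.0605 and 0.131) and was higher in GRL/L and in the double mutant when GRwt/wt vehicle replicate 1, with 6.34 CPM against 43.9 and 54.9, was left out, and also when replicate 3 was.

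Among secreted and surface proteins, Vegfa, the angiogenic growth factor, did not pass in vehicle (0.29 and -0.05), nor did the vasodilator peptide gene Adm (-0.01 and -0.31). Car9, a carbonic anhydrase that acidifies the outside of hypoxic cells, had 0.552, 1.99 and 2.04 CPM in GRwt/wt, 2.27 and 2.33 in GRD/D, 0.999, 1.02 and 0.672 in GRL/L, and 0.259, 0.229 and 0.648 in the double mutant. It was lower in the double mutant (LFC -2.02 ± 0.56, adjusted p = 0.0195), but at 5, 5 and 11 counts, and the groups overlapped. Of the HIF subunits themselves, Hif1a had 12.6, 270 and 349 CPM in GRwt/wt, 358 and 335 in GRD/D, 218, 179 and 268 in GRL/L, and 220, 225 and 256 in the double mutant. Epas1, which encodes HIF-2 alpha, had 3.92, 2.52 and 28.2 CPM in GRwt/wt, 7.93 and 4.76 in GRD/D, 7.88, 7.32 and 5.17 in GRL/L, and 4.87, 2.29 and 2.71 in the double mutant. In each of these genes 1 GRwt/wt library lay far from the other two, and neither passed in any genotype (for Hif1a LFC 0.07 ± 0.62 and 0.15 ± 0.62, for Epas1 -0.77 ± 0.69 and -1.81 ± 0.72). These values rested on that library. Without GRwt/wt vehicle replicate 1 the LFC of Hif1a was -0.48 in GRL/L and -0.39 in the double mutant, and without replicate 3 that of Epas1 was 1.12 and 0.09. Without replicate 1 or 2, the remaining pair of which includes the 28.2 CPM library, Epas1 passed as lower in the double mutant (-2.22 and -2.29, adjusted p = 0.0341 and 0.0234).

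**Figure D4:**
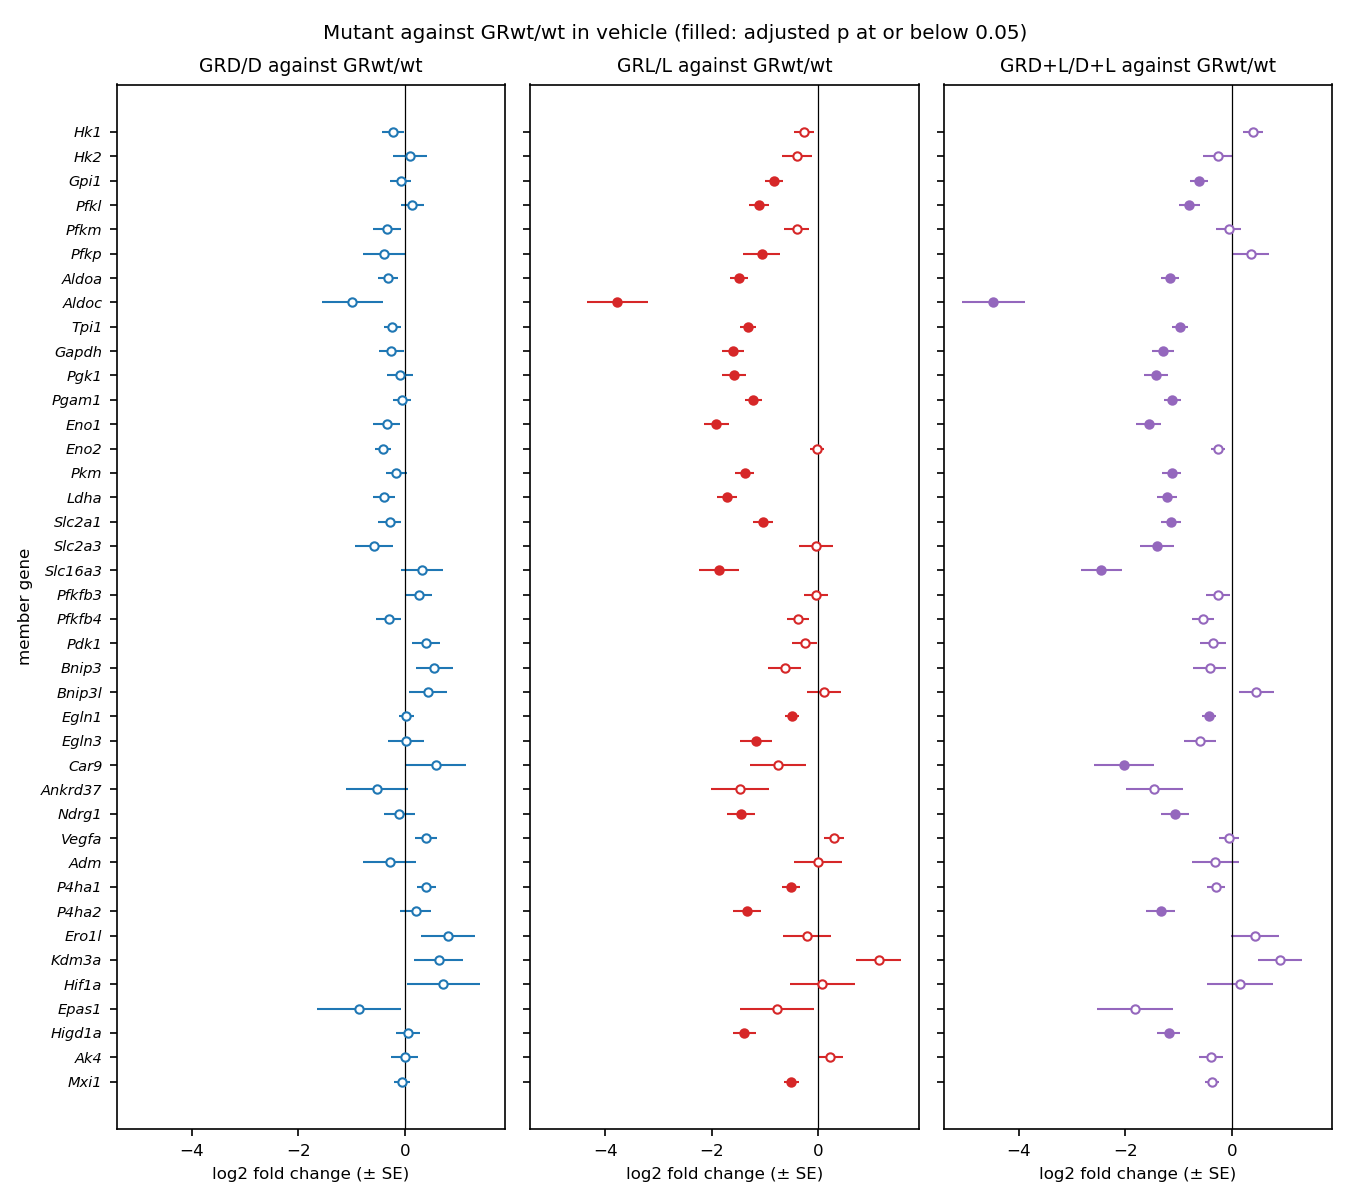
LFC with its standard error of the 40 members in vehicle libraries for each mutant against GRwt/wt. The GRD/D points scatter around 0 (median -0.07), 11 of the 16 enzymes lie below -1 in GRL/L, and 8 of 16 do in the double mutant.

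The members were also lower in L-bearing cells when GRD/D took the place of GRwt/wt. In vehicle, 16 members were lower in GRL/L than in GRD/D (background 0.718%), 14 of them with an LFC of at least 1 in size (0.375%), and 15 were lower in the double mutant than in GRD/D (0.927%), 9 with that LFC (0.692%). All 16 were among the 21 that were lower against GRwt/wt, and all 15 among the 19. Both comparisons use the same vehicle libraries with the L change, so this overlap is not independent support. The median LFCs were -0.84 and -0.74. This comparison rests on 2 GRD/D vehicle libraries, and without GRD/D vehicle replicate 1 the count fell to 0 in both, in fits where 0% and 0.0368% of all genes were lower, while the median LFCs of the members were -0.75 and -0.62. Without replicate 2 it was 10 and 1 (0.11% and 0.0306% of genes). For GRL/L it was also 10 without GRL/L vehicle replicate 1 or 2 (0.165% and 0.178%), and for the double mutant 9, 2 and 9 when vehicle replicate 1, 2 or 3 of the double mutant was out (0.732%, 0.0636% and 0.534%). Without GRwt/wt vehicle replicate 1, 22 members were lower and 1 higher in GRL/L (5.2% and 6.11% of genes), and 21 lower and 1 higher in the double mutant (3.81% and 5.16%). Between the double mutant and GRL/L, 0 of 40 members passed (0.0889% of genes were lower), with 7 members and 1507 of the 15748 genes at an unadjusted p under 0.05, a smallest adjusted p of 0.122 and a median LFC of 0.14. By DESeq2, 3 passed (Hk1 and Pfkp higher, Slc2a3 lower), where 0.255% of the 29404 genes fitted were higher and 0.629% lower.

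Against GRwt/wt cells given Dex, the same direction was seen with fewer calls. The labels do not say whether Dex and vehicle libraries came from the same cultures, so these comparisons may not be independent of those in vehicle. In GRL/L, 15 members were lower (background 2.9%), 8 of them with an LFC of at least 1 in size (1.23%), and 1 was higher (2.57%). In the double mutant, 11 were lower (2.97%), 5 with that LFC (1.87%). In GRD/D 0 passed (0.279% of genes were lower), with 7 members and 1750 of the 15748 genes at an unadjusted p under 0.05, and 1 member, Slc16a3, passed as higher by DESeq2 (0.371% of genes). The median LFCs were -0.53, -0.44 and 0.08. Of the 15, 14 were lower in vehicle too, and all 11 of the double mutant were. These calls depended on single libraries: leaving out 1 library moved the count in either direction to between 8 and 22 members in GRL/L and between 3 and 20 in the double mutant. In GRL/L it was 8 without GRwt/wt Dex replicate 3 or GRL/L Dex replicate 2 (0.898% and 0.783% of genes lower), 9 without GRL/L Dex replicate 1 (0.866%) and 10 without GRwt/wt Dex replicate 1 (1.38%). In the double mutant it was 3 without GRwt/wt Dex replicate 3 or Dex replicate 2 of the double mutant (0.828% and 0.553%), and 5 without GRwt/wt Dex replicate 1 or the same replicate of the double mutant (1.93% and 2.91%). It was 7 without Dex replicate 3 of the double mutant, GRL/L vehicle replicate 1 or GRL/L Dex replicate 1 (1.15%, 2.11% and 2.04%). The highest counts, 22 and 20, were those without GRwt/wt vehicle replicate 1, where the calls over all genes rose as well: 19 members were lower and 3 higher in GRL/L, against 11.1% and 11.8% of genes, and 18 lower and 2 higher in the double mutant, against 9.01% and 11.3%. Aldoa, Aldoc, Pgk1, Eno1, Pkm, P4ha2 and Higd1a were lower in both L-bearing genotypes in all 6 comparisons, those against GRwt/wt in vehicle and Dex and those against GRD/D in vehicle. These comparisons share libraries and possibly cultures, so they do not count as separate support. The member that was higher was Vegfa, which had 71.0, 74.2 and 63.0 CPM in GRL/L with Dex and 40, 47.1 and 40.5 in GRwt/wt with Dex, without overlap (LFC 0.71 ± 0.19, adjusted p = 0.0343).

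In the main fit, Dex itself moved no member past the threshold in any genotype. A fit with a replicate block, given at the end, passed Tpi1, Pgam1, Ldha and Slc16a3 as lower in GRwt/wt. In GRwt/wt, where 0.222% of genes passed in either direction, 0 of 40 members passed by edgeR, 12 members and 2454 of the 15748 genes had an unadjusted p under 0.05, and 4 passed as lower by DESeq2 (Aldoa, Tpi1, Pgam1 and Ldha), where 1.07% of the 29404 genes fitted were lower and 0.803% higher. The median LFC of the members was -0.30 beside -0.01 over all genes, and for the 16 enzymes it was -0.49, with all 16 below 0. The macrophage markers had lower values with Dex as well: their sum was 17.8 to 4530 CPM with vehicle and 16.7 to 93.6 with Dex, all 8 had an LFC below 0 (median -5.12) and an unadjusted p under 0.05, and 0 of 8 passed. Without GRwt/wt vehicle replicate 3, the library with the sum of 4530 CPM, the median LFC of the members was -0.15 beside 0.07 over all genes, and 1 member, Tpi1, passed as lower (LFC -0.63, adjusted p = 0.0403, 1.1% of genes). In 10 members (Pfkl, Aldoa, Aldoc, Tpi1, Gapdh, Pgam1, Eno1, Pkm, Ldha and Slc2a1) every Dex library lay below every vehicle library, against 4.48% of genes. The smallest adjusted p was 0.104, for Tpi1, which had 568, 442 and 425 CPM with vehicle and 353, 248 and 351 with Dex (LFC -0.59 ± 0.14). They also depended on which Dex library was read: the median of the enzymes relative to vehicle was -0.39, -0.91 and -0.26 in the 3 libraries, lowest in replicate 2.

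Single enzymes show that spread. In GRwt/wt with Dex, Aldoa had 1090, 701 and 1160 CPM (LFC -0.57 ± 0.17, adjusted p = 0.157). Gapdh had 708, 351 and 678 CPM (LFC -0.65 ± 0.21, adjusted p = 0.176). Ldha had 522, 367 and 649 CPM (LFC -0.66 ± 0.18, adjusted p = 0.144). In all 3 the second replicate was the lowest, and no Dex library reached the level of a vehicle library. Eno1 had 511, 300 and 603 CPM (LFC -0.60 ± 0.22, adjusted p = 0.218) and Aldoc 15.9, 8.10 and 23.5 CPM (LFC -0.76 ± 0.51, adjusted p = 0.499), likewise without overlap. Pgk1, with 221, 131 and 287 CPM (LFC -0.52 ± 0.22, adjusted p = 0.272), overlapped with vehicle.

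Outside the enzymes, the order of the replicates varied by gene. Slc16a3 had 12.3, 15.3 and 18.8 CPM (LFC -1.04 ± 0.36, adjusted p = 0.196), of which the highest lay within the vehicle range. Epas1 had 3.74, 5.67 and 4.93 CPM and the largest LFC of the members (-1.28 ± 0.70, adjusted p = 0.4). The Epas1 value rested on the 28.2 CPM of GRwt/wt vehicle replicate 3, and it turned to 0.62 without that library. Ndrg1 had 173, 114 and 178 CPM, with the second replicate lowest as in Aldoa, and Hif1a had 172, 417 and 374 CPM, with the second highest. In GRwt/wt Dex replicate 1, which had the 172 CPM, gene deviations followed transcript GC content with a rho of 0.323. The part of GC content in that Hif1a value was not tested. Slc2a3 had 5.61, 7.64 and 4.68 CPM and Car9 0.606, 2.86 and 1.44 CPM. Of the isozymes that did not pass as lower in the mutants, Eno2 had 41.9, 52.1 and 34.5 CPM, Hk1 131, 111 and 122 CPM, and Hk2 13.5, 15.5 and 17.8 CPM. All of the genes from Ndrg1 to Hk2 overlapped with their vehicle libraries.

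In the main fit, no gene of any kind passed for Dex in GRD/D, GRL/L or the double mutant (0% of genes in each by edgeR, with 154, 43 and 54 of 15748 at an unadjusted p under 0.05). By DESeq2, of 29404 genes fitted, 3 were higher in GRD/D, 0 passed in GRL/L, and 3 were lower and 2 higher in the double mutant. None of the 40 members reached an unadjusted p under 0.05 or passed by DESeq2, and their median LFCs were -0.06, -0.01 and -0.01. In GRD/D, 6 members had every Dex library below every vehicle library (Hk2, Eno2, Slc2a1, Car9, Vegfa and Ak4), against 10.5% of genes, and 1 (Adm) had every Dex library above, against 10.8%. In GRL/L and the double mutant 0 members were below (2.41% and 1.49%) or above (2.43% and 1.88%).

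The levels with Dex in GRD/D and in the cells with the L change were compared library by library, with no test of that contrast. In 23 of 40 members, 11 of them enzymes, all 6 Dex libraries with the L change lay below the 3 of GRD/D, against 14.6% of genes. Aldoa had 1250, 1040 and 1130 CPM in GRD/D, 531, 457 and 542 in GRL/L, and 596, 620 and 726 in the double mutant. Gapdh had 819, 622 and 750 CPM in GRD/D, 308, 296 and 298 in GRL/L, and 335, 335 and 422 in the double mutant. Ldha had 688, 560 and 622 CPM in GRD/D, 248, 209 and 287 in GRL/L, and 337, 302 and 365 in the double mutant. These 3 genes were among the 23. The GRD/D means of these 3 genes (1140, 730 and 623 CPM) were above those of GRwt/wt with Dex (981, 579 and 513) and had been below them with vehicle (1160, 760 and 615 against 1450, 908 and 810), and none of these differences passed. So were Eno1, with 617, 471 and 585 CPM in GRD/D, 184, 155 and 218 in GRL/L, and 266, 187 and 263 in the double mutant, and Pgk1, with 341, 245 and 291, 95.1, 83.6 and 116, and 100, 102 and 126 CPM. Aldoc had 14.3, 22.4 and 11.9 CPM in GRD/D, 1.5, 1.66 and 1.49 in GRL/L, and 2.56, 0.747 and 1.95 in the double mutant. Its 3 GRD/D libraries spread widely and still lay above every library with the L change, while the means of GRL/L and the double mutant were 1.55 and 1.75 CPM with Dex and 1.95 and 1.21 with vehicle.

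Of the members at lower levels, Slc16a3 with Dex had 42.3, 34.3 and 33.2 CPM in GRD/D, 8.72, 7.19 and 10.3 in GRL/L, and 5.49, 3.62 and 8.26 in the double mutant. Its GRD/D libraries also lay above the 3 of GRwt/wt with Dex, a difference that did not pass by edgeR (LFC 1.24 ± 0.36, adjusted p = 0.166) and did by DESeq2 (adjusted p = 0.0451). Slc2a3 had 3.15, 6.35 and 3.85 CPM in GRD/D, 5.53, 4.98 and 5.53 in GRL/L, and 2.66, 2.01 and 3.10 in the double mutant. Car9 had 1.54, 1.23 and 1.47 CPM in GRD/D, 1.13, 1.55 and 0.744 in GRL/L, and 0.435, 0.345 and 0.573 in the double mutant. The double mutant had the lowest mean of the genotypes for both Slc2a3 and Car9, as it had with vehicle. Ndrg1 had 137, 98.5 and 137 CPM in GRD/D, 47.5, 43.9 and 58.5 in GRL/L, and 39.9, 69.7 and 75.4 in the double mutant, and GRD/D lay above both genotypes with the L change but not above GRwt/wt with Dex, whose mean was 155 CPM against 124.

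Among the isozymes and subunits that did not pass as lower with vehicle, the order of the genotypes varied by gene. Eno2 had 35.6, 36.6 and 35.4 CPM in GRD/D, 57.5, 55.6 and 49.4 in GRL/L, and 51.6, 43.1 and 47.6 in the double mutant, so that GRD/D was the lowest of the mutants. Hk1 had 111, 84.4 and 104 CPM in GRD/D, 112, 97.4 and 109 in GRL/L, and 148, 184 and 153 in the double mutant, which was the highest. Hk2 had 15.8, 15.8 and 17.3 CPM in GRD/D, 13.4, 10.5 and 19.1 in GRL/L, and 22.0, 12.0 and 15.0 in the double mutant, with overlap among all 3. Hif1a had 369, 313 and 330 CPM in GRD/D, 217, 184 and 264 in GRL/L, and 194, 246 and 273 in the double mutant, and GRD/D lay above all 6 libraries with the L change, as in the enzymes above, while GRwt/wt with Dex overlapped with both. Epas1 had 7.03, 12.6 and 3.58 CPM in GRD/D, 6.80, 7.08 and 7.23 in GRL/L, and 6.31, 1.67 and 1.83 in the double mutant.

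Whether Dex acted differently in a mutant than in GRwt/wt was tested directly. The response of 0 of 40 members differed in GRD/D (0% of genes), in GRL/L (0.0254%) or in the double mutant (0.0254%), with 4, 5 and 6 members at an unadjusted p under 0.05, beside 1119, 990 and 796 of the 15748 genes. The median differences of the members were 0.16, 0.25 and 0.31 on the log2 scale, and those of all genes lay between -0.004 and 0.008. The lower enzyme values with Dex in GRwt/wt were therefore not shown to be absent in the mutants.

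**Figure D5:**
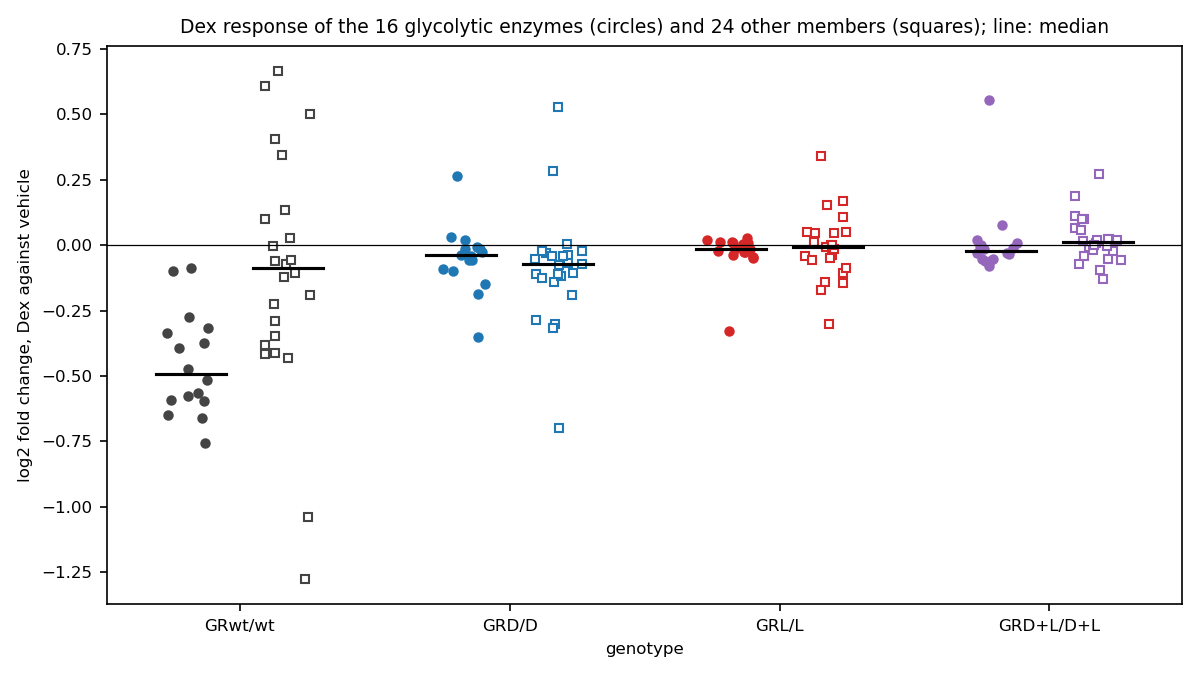
LFC of Dex against vehicle for each of the 40 members by genotype, with circles for the 16 enzymes, squares for the 24 other members and a line at the median. The 16 enzymes all lie below 0 in GRwt/wt (median -0.49), and the medians of all members in the mutants lie between -0.06 and -0.01.

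A group of 11 enzymes varied together across the libraries. Over the 23 libraries, the pairwise Pearson correlation of log2 CPM among the 11 enzymes that fell in both L-bearing genotypes (Gpi1, Pfkl, Aldoa, Aldoc, Tpi1, Gapdh, Pgk1, Pgam1, Eno1, Pkm and Ldha) had a median of 0.96 (0.75 to 0.99), among all 16 enzymes 0.49, and among all 40 members 0.28 (-0.78 to 0.99). The 11 were picked by their values in these libraries, and libraries of a genotype share their level, so these correlations are a description.

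Other genes of the same pathways were read from a pair of longer lists, with no test against the members. Of 26 other genes of glycolysis and pyruvate use, 22 could be tested. In vehicle, 8 of them were lower and 1 higher in GRL/L (14.2% and 8.83% of all genes), and 5 lower and 2 higher in the double mutant (13.3% and 7.14%). Those with an LFC of at least 1 in size were Eno3, the muscle enolase (-1.93 in GRL/L), Hk3 and Pgam2 (-4.79 and -4.03 in the double mutant), Pfkfb2 (1.38 and 1.08) and Pdk4 (2.91 in the double mutant). Hk3, a hexokinase of myeloid cells, spread from 0.161 to 82.5 CPM in GRwt/wt vehicle, the group with the high macrophage sum, and Pgam2 and Eno3 are muscle forms in a group whose 6 muscle markers summed to between 18.0 and 267 CPM in vehicle, against 11.8 to 25.3 in GRL/L and 15.3 to 24.7 in the double mutant. Of 35 other HIF pathway and HIF target genes, 33 could be tested, and 7 were lower and 3 higher in GRL/L and 6 lower and 2 higher in the double mutant, against the same shares of all genes. Those with an LFC of at least 1 in size included Fam162a, a mitochondrial hypoxia target (-1.48 and -1.17), Mif, a cytokine gene (-1.52 and -1.18), Stc2 (-2.11 in the double mutant), Wsb1 (1.35 in GRL/L) and Plod2, a collagen lysyl hydroxylase gene (2.23 in the double mutant). In GRD/D vehicle 0 genes of either list passed.

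Under Dex, a member of the HIF family outside the 40 responded in GRwt/wt. Hif3a, which encodes another alpha subunit, was at 0 to 0.215 CPM with vehicle (at most 4 counts) and at 3.12 to 9.28 CPM with Dex (adjusted p = 0.0208), and it stayed at or below 0.457 CPM in every library of the mutants. The test of the response itself did not pass in GRD/D, GRL/L or the double mutant against GRwt/wt (adjusted p = 0.96, 0.681 and 0.209), and in GRD/D, where it was at 0 in both vehicle libraries and at 0.109 to 0.295 CPM with Dex, the unadjusted p of the Dex test was 0.0265 (adjusted p = 1). With Dex it was lower than in GRwt/wt in GRD/D, GRL/L and the double mutant (adjusted p = 0.0441, 0.00244 and 0.00554). Cited2, an inhibitor of HIF-dependent transcription, was lower in GRD/D (LFC -1.32, adjusted p = 0.0215) and GRL/L (-0.97, adjusted p = 0.0204), and its LFC in the double mutant was -0.61 (adjusted p = 0.129). Of the 33 other HIF pathway and HIF target genes tested, 2 were lower with Dex in GRD/D (0.279% of genes), 8 lower and 1 higher in GRL/L (2.9% and 2.57%), and 5 lower in the double mutant (2.97%).

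The lower members were read beside other markers of the cultures. The macrophage sum was 17.8 to 4530 CPM in GRwt/wt vehicle, 259 to 918 in GRD/D, 294 to 673 in GRL/L and 9.06 to 78.7 in the double mutant. Of its 8 markers, 1 passed as lower than in GRwt/wt in GRL/L (median LFC -1.50) and 6 in the double mutant (median -5.00). The 6 proliferation markers summed to 81.1 to 257 CPM in GRwt/wt, 104 to 120 in GRD/D, 166 to 253 in GRL/L and 103 to 360 in the double mutant. The 8 neural and glial markers summed to 81.8 to 214 CPM in GRwt/wt, 108 to 170 in GRD/D, 91.3 to 143 in GRL/L and 35.7 to 213 in the double mutant. Their median LFC was -1.67 in both L-bearing genotypes, and 2 of 8 passed as lower in each (Tubb3 and Gfap in GRL/L, Tubb3 and Slc1a3 in the double mutant). Of the 6 muscle markers 2 could be tested: Acta1 was lower in GRL/L (LFC -2.59, adjusted p = 0.0244), with an LFC of -1.49 in the double mutant (adjusted p = 0.164), and Des had LFCs of -2.75 and -3.19 (adjusted p = 0.111 and 0.0788). Of the 8 fibroblast markers, Vim was lower in GRL/L (-0.93, adjusted p = 0.00675), and none of the other seven passed there, nor any of the 8 in the double mutant. The 6 endothelial markers summed to at most 20.9, the 6 epithelial markers to at most 5.79 and the 4 erythroid markers to at most 0.698 in any library. Nr3c1 had 4.08 to 88.0 CPM in GRwt/wt vehicle, 105 and 107 in GRD/D, 133 to 138 in GRL/L and 128 to 253 in the double mutant. The part of these differences in the members' levels was not tested.

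Some counts carry a limit from the counting. Whether reads were counted by strand was not stated, and exons of Hk1, Gpi1, Pfkm, Pfkp, Aldoa, Tpi1, Gapdh, Pkm, Slc2a1, Bnip3, Car9, Ankrd37, Ndrg1, Hif1a, Higd1a and Mxi1 overlap those of another annotated gene. Enzymes such as Gapdh, Pgk1, Eno1 and Ldha have processed pseudogenes, and only reads with a unique place in the genome were kept, so their levels are uncertain.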

How the data were processed

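RNA-seq counts of 23 libraries in 8 groups were used. Per the labels and the study's methods, total RNA was made into TruSeq libraries and sequenced on a NovaSeq instrument, reads were aligned to mm10 (GRCm38) with HISAT2 2.1.0, uniquely placed reads were kept, and featureCounts 2.0.0 gave the counts, which the authors deposited as raw counts per Ensembl gene. FastQC and DESeq2 are also named in the submitters' processing notes. Strandedness and annotation release are not given in the sources used here. Each column was matched to a library by its title. Symbols came from GENCODE M21, in which 55227 of 55487 identifiers were found and 260 were not.

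The quasi-likelihood test of edgeR 4.0.16 (R 4.3.3) was fitted over all 23 libraries, with 1 mean per group, TMM scaling, filterByExpr (15748 genes left), a prior count of 0.125 and Benjamini-Hochberg adjustment over all genes tested. Unless DESeq2 is named, adjusted p-values in the text are those of edgeR. A gene passed at an adjusted p of at most 0.05 and was called at an absolute LFC of at least 1 as well, the study's thresholds. The SE of an LFC was computed from its F statistic. CPM values are relative to the TMM-scaled total of a library. Totals of 16.5 M to 23.1 M counts per library set the counting precision, and members below about 1 CPM rest on few counts. No 2 libraries of a group agreed within counting noise (lowest mean chi-square per gene 9.62).

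The members, gene lists, marker lists and tests were chosen with earlier results of these data known. All 40 members are named. Values of every library are given for the 10 members with the largest absolute LFC among those that passed in a mutant against GRwt/wt and reached a mean of 1 CPM, for the 3 with the largest Dex LFC in GRwt/wt, and for Aldoa, Aldoc, Eno1, Eno2, Hk1, Hk2, Hif1a and Epas1. Other genes shown with library values (Pfkp, P4ha2, Egln3, Vegfa, Tpi1, Bnip3 and Kdm3a) were added after their values were seen. Exon lengths for values per kilobase came from GENCODE M21.

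The labels give replicate numbers in each group. Samples of the same number deviated together in GRL/L (r from 0.322 to 0.644) and GRD+L/D+L (0.652 to 0.887) but not in GRwt/wt (0.548, 0.027 and -0.027) or GRD/D (0.283 and -0.199), so the main test used no block. Alternatives were RLE and upper-quartile scaling, 2 other expression filters, DESeq2 1.42.0, fits of only the genotypes compared, a replicate block, a correction for GC content and length, and leaving out each library, or GRwt/wt vehicle replicates 1 and 3 together. The edgeR fit was tested on simulated counts for the GRL/L and GRD/D vehicle comparisons, with an equal spread for all genes and no outlier library. The other procedures were not tested that way. Promoters with more than 1 listed start were searched at each start.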

Additional observations from a re-analysis of the deposited data

How the results depend on the processing

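The counts of members lower in vehicle against GRwt/wt stayed within 1.5 times of 21 (GRL/L) and 19 (the double mutant, GRD+L/D+L) under all alternatives except the fit of only the genotypes compared, which gave 11 in the double mutant (0.503% of all genes lower). Counts under Dex and against GRD/D depended on the fit and on single libraries. In that fit of only the genotypes compared, 4 members passed in GRL/L with Dex (0.428% of genes lower) and 0 in the double mutant with Dex (0.0747%). In GRL/L against GRD/D 30 passed, 28 lower and 2 higher, where the share of all genes was 17.1% lower and 16.4% higher, and in the double mutant against GRL/L 4 passed, 1 lower and 3 higher (2.09% and 1.01%). DESeq2 gave 1 in GRD/D with Dex, 17 in the double mutant with Dex (3.07% of genes lower), 3 in the double mutant against GRL/L and 4 for Dex in GRwt/wt. Without an expression filter, 6 passed in the double mutant with Dex and 8 against GRD/D (0.789% and 0.258% of genes lower). With the fold required, 8 passed in GRL/L with Dex, 5 in the double mutant with Dex and 9 in the double mutant against GRD/D. The GC and length correction gave 7 in the double mutant with Dex (6 lower, 2.5% of genes, and 1 higher, 5.12%) and 10 against GRD/D (0.94% of genes lower). With GRwt/wt vehicle replicates 1 and 3 both left out, the lone library is assumed to vary like the other groups. Counts with Dex and between mutants are not given for that fit. The cause of these changes was not tested.

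Leaving out 1 library at a time gave 17 to 25 members in GRL/L and 16 to 25 in the double mutant with vehicle, 0 to 1 in GRD/D with vehicle and with Dex, 8 to 22 in GRL/L and 3 to 20 in the double mutant with Dex, 0 to 23 in GRL/L and 0 to 22 in the double mutant against GRD/D, 0 to 2 in the double mutant against GRL/L, and 0 to 1 for Dex in GRwt/wt. For Epas1, the Dex LFC in GRwt/wt (-1.28) ran from -1.75 without GRwt/wt vehicle replicate 2 to 0.62, a reversal, without replicate 3, and reversed to 0.91 with replicates 1 and 3 both out. Upper-quartile scaling moved the median LFC of all genes in vehicle to -0.16 (GRD/D), -0.17 (GRL/L) and -0.19 (the double mutant), and that of the members to -0.17, -0.84 and -0.76.

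With a replicate block, Tpi1, Pgam1, Ldha and Slc16a3 passed as lower for Dex in GRwt/wt. The share of all genes in that fit is not given here, so these calls cannot be set against it. There the numbers were not shown to pair the samples, since GRwt/wt vehicle replicate 2 correlated best with Dex replicate 3 (0.544) and vehicle replicate 3 with Dex replicate 2 (0.375). The block kept the counts in GRL/L and the double mutant, against GRwt/wt in vehicle and Dex and against GRD/D, within 1.5 times of the main fit. It changed no member's call in GRL/L or the double mutant for Dex.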
